A study of Mus musculus with 6 samples.

Results

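The genes described here are 10 genes of the heat shock response, *Hspa1a*, *Hspa1b*, *Hspa8*, *Hsph1*, *Dnajb1*, *Hspb1*, *Hsp90aa1*, *Bag3*, *Cryab* and *Hspd1*, chosen by symbol from the 43472 gene symbols counted in the intervertebral disc (IVD) of the mouse. RNA-seq libraries came from 3 pools of IVDs of mutants, *Col2Cre;Adgrg6 f/f*, and as many of Cre (-) littermate controls, all on a C57B6/J background and all at postnatal day 20 (P20), when the study saw no overt histopathology in the mutant disc. Each library is a pool from 2 to 3 mice, so the spread between libraries is a spread between pools. The labels call the control genotype wild type and their titles name them Col2Cre controls, and no sex is given. *Adgrg6* encodes an adhesion G protein-coupled receptor, both of its alleles are floxed in the mutant (the labels give no floxed allele for the controls), and the Col2 promoter that drives Cre acts in cartilage-forming cells and, per the study's reporter staining, recombines throughout the whole IVD and also in periosteum and trabecular bone.

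The heat shock response is the transcriptional answer of cells to unfolded protein. The factor HSF1 is released from chaperones, forms trimers and binds repeated GAA units in the promoters of its target genes. HSP70 proteins bind unfolded chains with the help of J-domain proteins, exchange factors such as BAG3 and HSP110 reset them, HSP90 matures client proteins, the small heat shock proteins hold denatured protein, and HSP60 folds proteins inside mitochondria. In the disc, cells live under mechanical load and with little blood supply. Chaperone genes also respond to warming, injury and handling of tissue, so they are read here together with other genes of that kind.

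Total counts on genes were between 9061491 and 12017008 in the 6 libraries, and the levels of any pair of libraries, as log2 CPM (counts scaled to a common library size after TMM normalization, which corrects for the makeup of a library), correlated across genes at 0.899 to 0.956, where genes are not independent replicates. *Col2a1*, the main collagen of cartilage, took 7.16% to 11.6% of the counts of every library, and of the other markers of the tissue the notochord gene *Noto* was listed at 0 counts in all but mutant replicate 2. *Adgrg6*, listed by its older symbol, was at 108.6 ± 14.7 CPM in controls and 122.4 ± 16.1 CPM in mutants (SD, n = 3 pools each; log2 fold change 0.17, SE 0.184; edgeR's quasi-likelihood test, adjusted p = 0.849), and since whole-gene counts include exons outside the floxed part this does not check the genotype. Control replicate 1 stands apart: its skeletal muscle markers summed to 5203.5 CPM against 218.2 to 337.9 CPM in the other 5 libraries. The heat shock genes are therefore also described without that library.

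Promoter sequences of 7 of the 10 genes were matched in RefSeq (GRCm38.p6); *Hspa8*, *Hsp90aa1* and *Cryab* had no entry. Shown are the 250 bases before the annotated start of the near-identical inducible pair *Hspa1a* and *Hspa1b*, of *Hspb1*, and, for contrast, of a start of *Hspd1*, the gene with the smallest fitted change. Each is written 5′ to 3′ on the strand of its gene, and capitals mark matches to GAANNTTC or TTCNNGAA, a pair of alternating units of the heat shock element, which read on either strand give the same 2 patterns.

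Hspa1a (chr17:34972157-34972406, minus strand): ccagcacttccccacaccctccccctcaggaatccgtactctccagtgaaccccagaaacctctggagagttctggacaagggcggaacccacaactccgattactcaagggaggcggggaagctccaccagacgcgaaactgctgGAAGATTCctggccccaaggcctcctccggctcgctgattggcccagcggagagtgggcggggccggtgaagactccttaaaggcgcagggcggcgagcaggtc
Hspa1b (chr17:34959239-34959488, minus strand): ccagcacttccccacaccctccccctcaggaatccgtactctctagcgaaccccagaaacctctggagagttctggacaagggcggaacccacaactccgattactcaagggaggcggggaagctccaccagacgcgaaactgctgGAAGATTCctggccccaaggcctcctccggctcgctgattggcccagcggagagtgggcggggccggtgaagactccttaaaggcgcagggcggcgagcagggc
Hspb1 (chr5:135887669-135887918, plus strand): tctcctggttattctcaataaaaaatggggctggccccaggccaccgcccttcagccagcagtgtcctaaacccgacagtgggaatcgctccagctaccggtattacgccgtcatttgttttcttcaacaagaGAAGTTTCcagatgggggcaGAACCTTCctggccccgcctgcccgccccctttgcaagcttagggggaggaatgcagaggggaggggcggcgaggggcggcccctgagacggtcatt
Hspd1 (chr1:55087933-55088182, minus strand): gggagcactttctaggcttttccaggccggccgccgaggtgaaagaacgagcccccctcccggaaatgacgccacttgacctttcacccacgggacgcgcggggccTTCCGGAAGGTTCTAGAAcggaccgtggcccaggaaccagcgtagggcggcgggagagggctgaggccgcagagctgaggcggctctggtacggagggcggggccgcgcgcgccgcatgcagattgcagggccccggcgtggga

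The promoters of *Hspa1a* and *Hspa1b* were the same at 247 of 250 bases (98.8%) and each held 1 match, beginning at base -104 relative to the start. *Hspb1* held 2 matches, at -117 and -97. *Hsph1* has 2 annotated starts and had 1 match before each, at -33 and -54, and 2 after each, and *Bag3* had 1 match after its start. In *Dnajb1* neither of the 2 annotated promoters held these letters. The *Hspd1* start shown had 3 overlapping matches at -144, -139 and -134, while its other annotated promoter had none. Over the 300 bases held for each promoter, 15.1% of 32851 promoters had such a match, and 0.603% had 3 alternating units in a row, as did *Hsph1* and the *Hspd1* start shown. These are matches of letters in a window and not binding sites.

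Levels of different genes were compared per length, as CPM per kilobase of the longest coding transcript. The constitutive HSP70 gene *Hspa8* was the most abundant, at 153.6 ± 9.36 CPM per kilobase in controls and 205.7 ± 9.21 in mutants (SD, n = 3). Next came the small heat shock protein genes, *Hspb1* at 115.9 ± 34.7 in controls and 187.6 ± 70.3 in mutants, and *Cryab* at 88.5 ± 24.2 and 113.8 ± 32.1. *Hsp90aa1*, *Bag3* and *Hspd1* lay between 23.9 and 40.4 CPM per kilobase in controls on average, and *Dnajb1*, *Hsph1*, *Hspa1a* and *Hspa1b* between 3.50 and 8.76. In this order of control levels, the ranges of neighbouring genes did not overlap between *Hspa8* and *Hspb1*, *Cryab* and *Hsp90aa1*, or *Hspd1* and *Dnajb1*, and overlapped for every other pair of neighbours. The inducible pair was thus at the bottom of the order in controls. In mutants all 4 genes of the lowest group averaged 8.20 to 11.3 CPM per kilobase, with single libraries from 6.85 to 12.3. These levels are not corrected for sequence shared with other genes. Of the windows of each transcript, described below, 56.5% occurred in other genes for *Hspa1a*, 49.9% for *Hspa1b* and 63.4% for *Hspa8*. This was 0% for *Hsph1*, *Dnajb1* and *Bag3*, and 15.0% to 47.6% for the remaining members. The place of the pair below *Hsph1* and *Dnajb1* can therefore depend on how shared reads were counted.

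Across the 10 genes, 9 were fitted higher and 1 lower in mutants, with a median log2 fold change of 0.38, against -0.01 for all 16152 genes tested, of which 48.4% were fitted higher. *Hspa1a*, *Hspa1b*, *Hspa8* and *Hspb1* were higher at an unadjusted p under 0.05 in edgeR's quasi-likelihood test, and none was lower. This is 4 of 10 genes, where 2.89% of all genes tested were called higher and 7.21% were called in either direction. *Hspa1a* and *Hspa1b* are near-identical, and with the pair summed into 1 feature it was 3 of 9, again beside 2.89%. With members summed with genes that share their sequence, a choice made after seeing the data, it was 3 of 10, beside 2.88%. In that fit *Hspa8* was lost, and *Hspa1a* and *Hspa1b* held the same sum. No member passed after Benjamini-Hochberg adjustment over all genes, with adjusted p between 0.676 and 0.972, and 0.00619% of all genes tested did. DESeq2 gave 4 members at an unadjusted p under 0.05, where it called 2.98% of all genes higher, and 0 after adjustment. With limma-voom these were 6 members, 4.54% of all genes and 0. All 3 mutant libraries were above all 3 controls for *Hspa1b* and *Hspa8*, which is 2 of 10 genes against 5.45% of all genes tested, and the groups overlapped for the other 8. In bulk tissue, more cells of a type and more RNA per cell cannot be told apart.

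**Figure D1:**
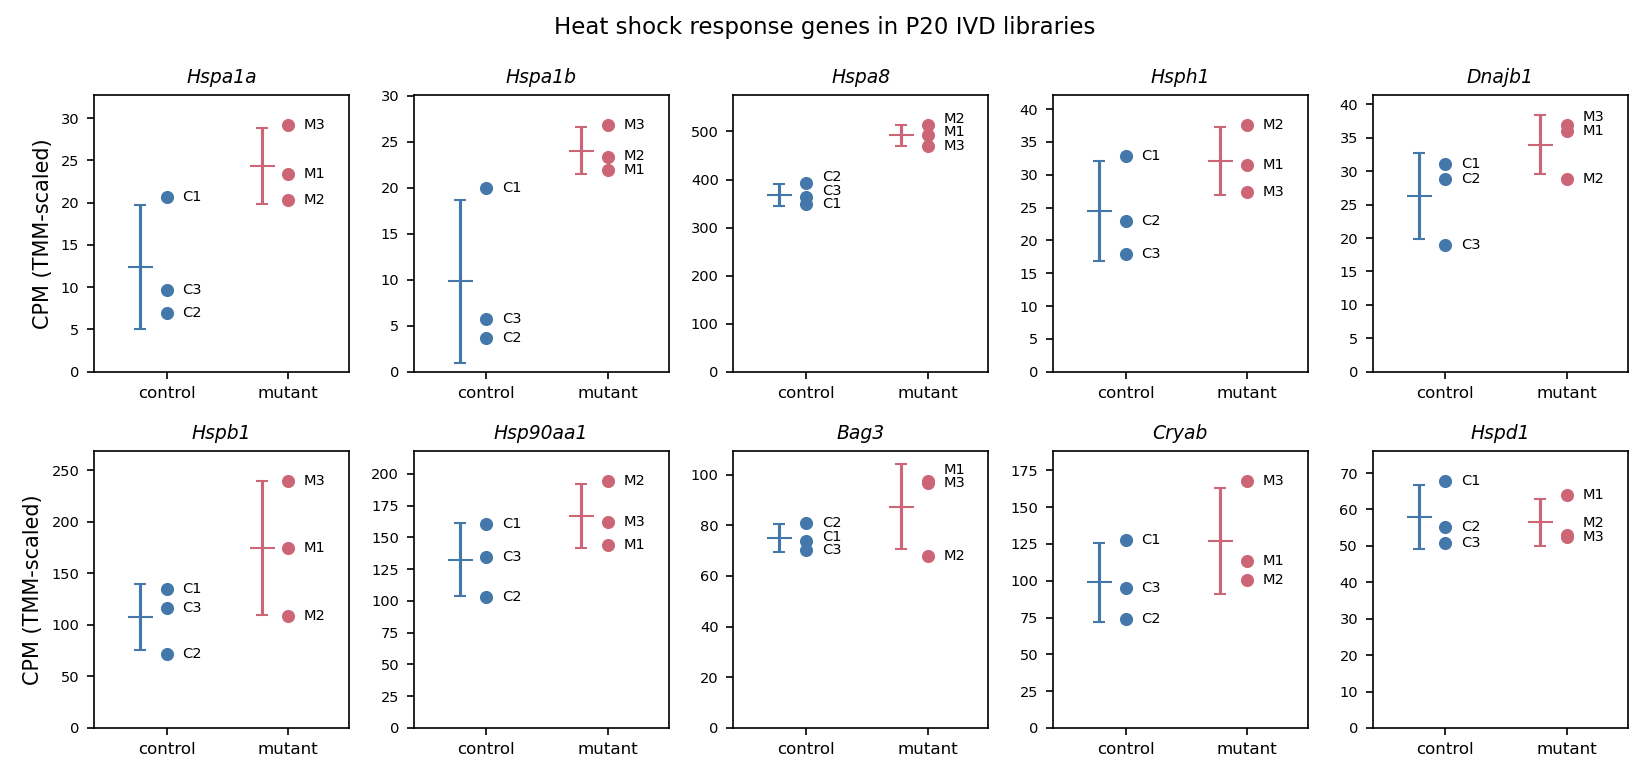
TMM-scaled CPM (vertical axes from 0) of the 10 heat shock response genes in the 3 control (C1 to C3) and 3 mutant (M1 to M3) libraries; bars show the mean ± SD of each group. Only for *Hspa1b* and *Hspa8* do the mutant libraries all lie above the controls, and C1 lies well above C2 and C3 for *Hspa1a* and *Hspa1b*.

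*Hspa1a* and *Hspa1b* encode the stress-inducible cytosolic HSP70, and are neighbours on chromosome 17 (GENCODE M21 on GRCm38, chr17:34969190-34972156 and chr17:34956436-34959238, both on the minus strand). *Hspa1b* had 20.0, 3.66 and 5.79 CPM in controls (replicates 1, 2 and 3, in this order throughout) and 21.96, 23.3 and 26.9 CPM in mutants. *Hspa1a* had 20.7, 6.88 and 9.62 CPM in controls and 23.4, 20.3 and 29.2 CPM in mutants. For both genes the mutant pools lay close together, and control replicate 1 lay beside them, well above the other controls. Thus the mutant mean was 2.46-fold the control for *Hspa1b* (log2 fold change 1.30, SE 0.496; edgeR, unadjusted p = 0.0253, adjusted p = 0.676) and 1.97-fold for *Hspa1a* (log2 fold change 0.97, SE 0.358; edgeR, unadjusted p = 0.0211, adjusted p = 0.676).

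The controls of this pair were spread more widely than its mutants. The highest control was 5.46 times the lowest for *Hspa1b* and 3.00 times for *Hspa1a*, against 1.22 and 1.44 times among mutants. The median of the same ratio over the 9965 genes with a mean of at least 10 CPM was 1.35 in controls and 1.36 in mutants. Other genes described further on, among them *Hspb6*, *Hspb7*, *Fos* and *Egr1*, also had their highest control value in control replicate 1. Without control replicate 1 the log2 fold change was 2.35 for *Hspa1b* (edgeR, unadjusted p = 6.05e-06, adjusted p = 0.0173) and 1.57 for *Hspa1a* (unadjusted p = 0.00013, adjusted p = 0.056). Without control replicate 2 it was 0.91 for *Hspa1b* (edgeR, unadjusted p = 0.0604) and 0.69 for *Hspa1a* (unadjusted p = 0.0639). Leaving out control replicate 3 or mutant replicate 3 also took both genes past an unadjusted p of 0.05 in edgeR. The values were 0.0857 and 0.0699 for *Hspa1b*, at log2 fold changes of 1.03 and 1.22. For *Hspa1a* they were 0.0709 and 0.079, at log2 fold changes of 0.83 and 0.83.

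The 2 genes cannot be read as independent measurements. Their coding sequences were the same at 1918 of 1929 aligned bases (99.4%) and their proteins at 641 of 642 residues (99.8%), and 47.1% of 100-base windows of *Hspa1a* occurred unchanged in *Hspa1b*. *Hspa1b* took 49.2%, 34.7% and 37.6% of the counts of the pair in the controls and 48.4%, 53.5% and 47.9% in the mutants. How reads with several matches were assigned is not given, and the files list 0 reads as aligned to more than 1 place in every library. Summed into 1 feature, the pair had a log2 fold change of 1.13 (edgeR, unadjusted p = 0.019, adjusted p = 0.677). A further gene, *Gm20481*, lies with all 564 of its exonic bases inside *Hspa1a* exons on the opposite strand, and it was counted at 7.33 to 19.4 CPM in controls and 20.2 to 29.4 CPM in mutants. Both genes were thus given counts despite this overlap. The levels of *Hspa1a* were close to those of *Gm20481*, at 6.88 to 20.7 CPM in controls and 20.3 to 29.2 CPM in mutants. The strand setting is not stated, and how many reads of *Gm20481* came from *Hspa1a* RNA was not tested.

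Set against the constitutive gene, the inducible pair had 11.7%, 2.69% and 4.25% of the counts of *Hspa8* in controls and 9.21%, 8.49% and 11.9% in mutants. The log2 ratio averaged -4.29 ± 1.08 in controls and -3.36 ± 0.256 in mutants (SD, n = 3), a difference of 0.94 that needs no scaling between libraries, and the groups overlapped through control replicate 1. This difference was 1.53 without control replicate 1 and 0.47 without control replicate 2. How reads of *Hspa8* were shared with its copies, described below, also bears on this ratio.

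*Hspa8* (chr9:40800984-40810087, plus strand) encodes HSC70, the HSP70 that cells keep at a high level without stress. It had 348.5, 392.4 and 362.6 CPM in controls and 493.0, 514.2 and 470.1 CPM in mutants. Here no control, control replicate 1 included, reached the mutants, and the mutant mean was 1.34-fold the control (log2 fold change 0.42, SE 0.18; edgeR, unadjusted p = 0.0408, adjusted p = 0.684). This call was lost when any 1 of the 6 libraries was left out, with log2 fold changes of 0.40 to 0.46 and edgeR's unadjusted p up to 0.0826.

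Counts on near-identical copies of *Hspa8* moved the other way. On chromosome 5, the processed pseudogene *Gm15459* (chr5:5781615-5783555, minus strand) and the lincRNA *Gm26825* (chr5:5781530-5783636, plus strand) lie across each other, and 58.5% of the 100-base windows of the *Hspa8* transcript occurred in each unchanged. *Gm15459* had 762, 593 and 846 counts in the controls and 179, 48 and 430 in the mutants. *Gm26825* had 790, 560 and 884 counts in the controls and 159, 31 and 512 in the mutants. Both were therefore lower in every mutant than in any control, opposite to *Hspa8*, as were 5.96% of all genes tested. *Gm26825* had a log2 fold change of -1.53 and did not pass (edgeR, unadjusted p = 0.0553, adjusted p = 0.691). Together the copies took 24.6% to 32.3% of the counts on the 3 genes in controls and 1.24% to 17.5% in mutants.

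When *Hspa8* was summed with the 5 counted genes that share such a window, a choice made after seeing the data, the sum was 515.4, 521.7 and 499.1 CPM in controls and 532.6, 521.7 and 572.0 CPM in mutants. The highest control and the lowest mutant were then level. The log2 fold change of the sum was 0.08 (SE 0.182; edgeR, unadjusted p = 0.66, adjusted p = 0.939). From counts per gene, a change of *Hspa8* and a change in how its reads were shared with these copies cannot be told apart.

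**Figure D2:**
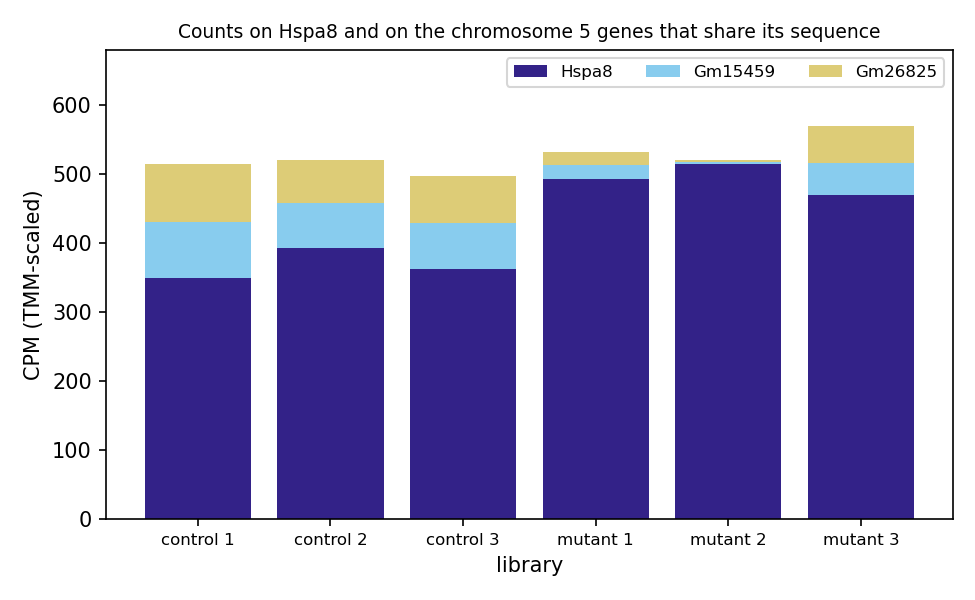
Stacked TMM-scaled CPM (vertical axis from 0) of *Hspa8* and of *Gm15459* and *Gm26825*, the overlapping chromosome 5 genes that share 58.5% of its 100-base windows, in each library. The *Hspa8* share of the bars is taller in all 3 mutants, while the chromosome 5 share is smaller and falls to 1.24% of the counts in mutant replicate 2.

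Among the small heat shock proteins, *Hspb1* (chr5:135887919-135889563, plus strand), which encodes HSP25, an actin-protecting chaperone, had 134.7, 72.1 and 116.6 CPM in controls and 174.7, 109.0 and 239.7 CPM in mutants. Mutant replicate 2 lay among the controls and mutant replicate 3 was the highest of all. Its log2 fold change was 0.69 (SE 0.308; edgeR, unadjusted p = 0.0477, adjusted p = 0.691). This call was lost in edgeR with control replicate 2 left out (log2 fold change 0.47, unadjusted p = 0.167) and with mutant replicate 3 left out (log2 fold change 0.40, unadjusted p = 0.237). Leaving out control replicate 3 or mutant replicate 1 also took it past the threshold, at slightly larger log2 fold changes of 0.76 and 0.73 (edgeR, unadjusted p = 0.0674 and unadjusted p = 0.0743). Of its windows 42.7% occurred in the pseudogene *Hsp25-ps1*, but this copy had 1 to 12 counts in a library against 649 to 2256 for *Hspb1*.

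*Cryab* (chr9:50751325-50756636, plus strand) encodes alpha-B crystallin, the small heat shock protein of lens and muscle. It had 127.6, 74.1 and 94.9 CPM in controls and 113.2, 100.2 and 167.8 CPM in mutants, so that mutant replicate 3 alone exceeded the highest control (log2 fold change 0.36, SE 0.255; edgeR, unadjusted p = 0.185). The log2 fold change was 0.11 with mutant replicate 3 left out and 0.61 with control replicate 1 left out (edgeR, unadjusted p = 0.667 and 0.0351). *Hspb2*, a head-to-head neighbour with 252 exonic bases that overlap *Cryab* exons on the other strand, was at 6.61 to 16.5 CPM in all libraries.

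The partners of HSP70 were fitted higher, with unadjusted p above 0.05 in edgeR. *Hsph1* (chr5:149614287-149636376, minus strand), the HSP110 nucleotide exchange factor, had 32.9, 22.9 and 17.9 CPM in controls and 31.5, 37.6 and 27.3 CPM in mutants. Its log2 fold change was 0.39 (SE 0.237; edgeR, unadjusted p = 0.128), and control replicate 1 was again among the mutants. *Dnajb1* (chr8:83608193-83612653, plus strand), the HSP40 that hands clients to HSP70, had 31.0, 28.8 and 18.9 CPM in controls and 36.1, 28.9 and 37.0 CPM in mutants. Here only control replicate 3 lay well below the rest (log2 fold change 0.38, SE 0.215; edgeR, unadjusted p = 0.111). *Bag3* (chr7:128523616-128546981, plus strand), which joins HSP70 to small heat shock proteins and to autophagy, had 73.7, 81.1 and 70.1 CPM in controls and 97.5, 68.1 and 96.6 CPM in mutants. It was the single member whose lowest library was a mutant (log2 fold change 0.22, SE 0.187; edgeR, unadjusted p = 0.265). Neither *Hsph1*, *Dnajb1* nor *Bag3* shared a 100-base window with another gene.

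*Hsp90aa1* (chr12:110690605-110702728, minus strand) encodes the inducible HSP90 alpha. It had 160.3, 102.8 and 134.3 CPM in controls and 144.2, 194.4 and 161.9 CPM in mutants, with control replicate 1 above mutant replicate 1 (log2 fold change 0.33, SE 0.212; edgeR, unadjusted p = 0.147). *Hspd1* (chr1:55077835-55088243, minus strand) encodes the mitochondrial chaperonin HSP60. It had 67.9, 55.3 and 50.7 CPM in controls and 63.8, 53.0 and 52.5 CPM in mutants, and the groups lay on each other (log2 fold change -0.04, SE 0.175; edgeR, unadjusted p = 0.834). Its sign turned positive once control replicate 1, or mutant replicate 2, or mutant replicate 3, was left out.

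**Figure D3:**
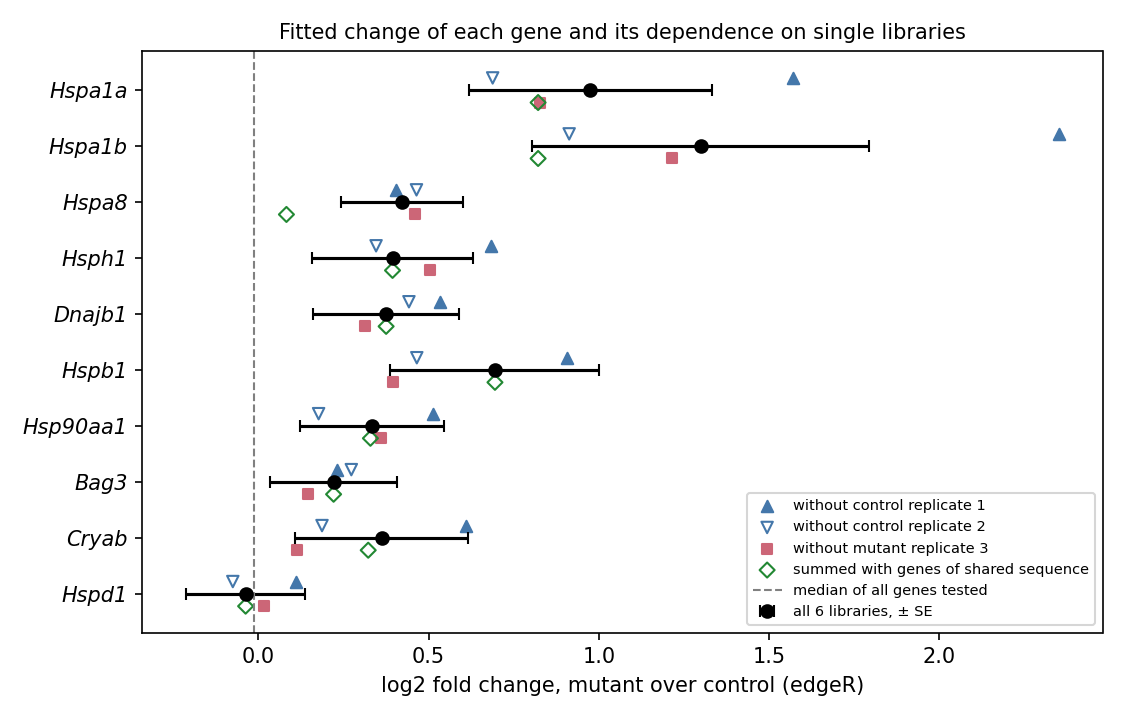
Log2 fold change of mutant over control (horizontal axis, edgeR) of each gene with all 6 libraries (black, ± SE), without 1 library (filled and open triangles, squares) and after summing with genes that share a 100-base window (open diamonds). *Hspa1b* moves from 1.30 to 2.35 without control replicate 1 and to 0.91 without control replicate 2, and the *Hspa8* sum lies at 0.08.

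Dependence on single libraries was shared by most members. Centred on each gene's mean, the 10 genes averaged 0.15, -0.54 and -0.43 log2 units in the controls and 0.28, 0.15 and 0.40 in the mutants. Control replicate 2 was the lowest library for 5 of the genes and control replicate 3 for 3, while mutant replicate 3 was the highest for 5 and mutant replicate 2 for 3. Control replicate 1 was thus level with mutant replicate 2. The number of members at an unadjusted p under 0.05 in edgeR was 7 without control replicate 1, the added genes being *Hsph1* (unadjusted p = 0.0119), *Cryab* (unadjusted p = 0.0351), *Hsp90aa1* (unadjusted p = 0.0388) and *Dnajb1* (unadjusted p = 0.0467), with *Hspa8* lost (unadjusted p = 0.0785). The log2 fold changes were then 0.68 for *Hsph1*, 0.61 for *Cryab*, 0.51 for *Hsp90aa1*, 0.53 for *Dnajb1*, 0.91 for *Hspb1*, 0.40 for *Hspa8*, 0.23 for *Bag3* and 0.11 for *Hspd1*. All genes were called more often too in that fit, 2427 in either direction against 1164 with every library, and 5.25% of all genes were called higher. The number of members was 0 when control replicate 2, control replicate 3 or mutant replicate 3 was left out, 2 without mutant replicate 1, and 3 if mutant replicate 2 was dropped. In the order of these 5 fits, 2.19%, 1.76%, 2.06%, 2.24% and 4.73% of all genes were called higher. The median log2 fold change of the 10 genes stayed between 0.35 and 0.57 in these 6 fits.

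**Figure D4:**
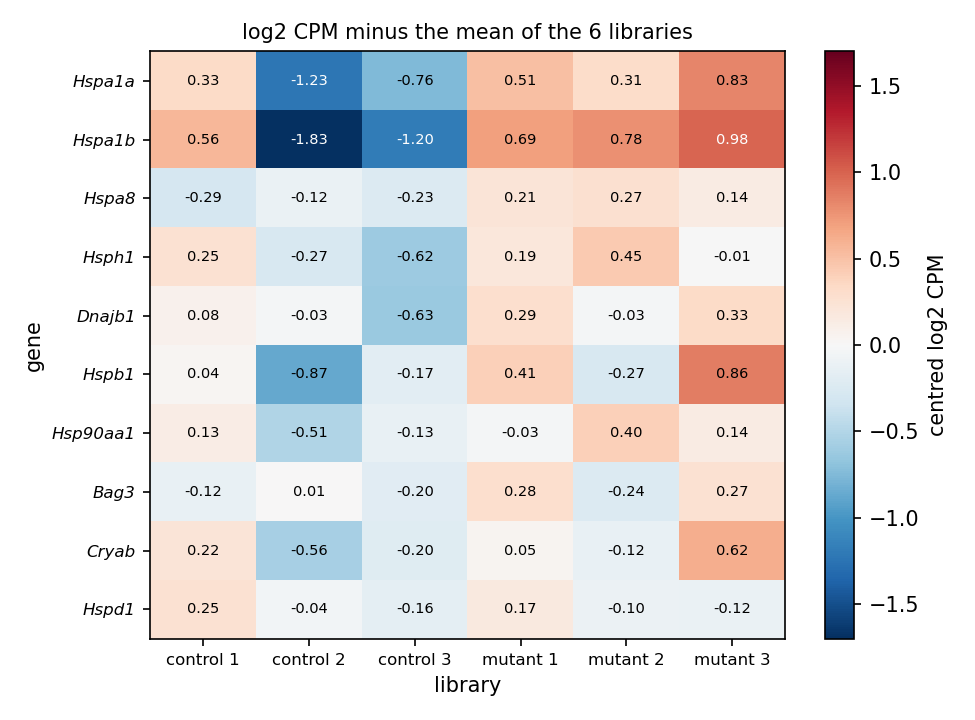
Log2 CPM of each gene minus its mean over the 6 libraries (colour and printed value; rows are genes, columns libraries). Control replicates 2 and 3 are at or below the mean for nearly all genes, down to -1.83 for *Hspa1b*, and control replicate 1 is above it for 8 of 10.

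Marker genes of other cells moved with some of these libraries. Skeletal muscle markers were 5203.5, 287.4 and 218.2 CPM in controls and 337.9, 312.1 and 304.0 CPM in mutants, with 11 of the 12 markers lower in mutants at an unadjusted p under 0.05 in edgeR. That count rested on control replicate 1, since with it left out 0 were lower, 5 were higher and the list median turned from -3.07 to 0.67. It was 2 to 4 with any 1 mutant library left out. Endothelial markers summed to 231.2, 113.0 and 153.0 CPM in controls and 188.3 to 213.2 CPM in mutants, and those of red blood cell precursors to 341.9, 39.6 and 99.98 CPM in controls and 212.7 to 448.9 CPM in mutants. All 3 lists were thus higher in control replicate 1 than in the other controls, as were 8 of the 10 heat shock genes, all but *Hspa8* and *Bag3*. Markers of myelinating glia ran from 334.8 to 1998.1 CPM in controls and from 1134.0 to 4023.8 CPM in mutants, and were lowest in control replicate 1. Of 7 chondrocyte markers 5 were fitted lower in mutants, with a list median of -0.29, and *Matn3* was lower at an unadjusted p of 0.0178 in edgeR; their sum, 74537.2 to 129277.8 CPM in controls and 109189.2 to 136902.4 CPM in mutants, was mostly *Col2a1*. Osteoblast markers summed to 356 to 577.7 and 453.6 to 723.6 CPM, with *Bglap* (3.11-fold, unadjusted p = 0.000415) and *Bglap2* (2.47-fold, unadjusted p = 0.00473) higher and *Phex* lower (0.57-fold, unadjusted p = 0.0341) in edgeR. Of the markers of red blood cell precursors *Slc4a1* was higher (6.40-fold; edgeR, unadjusted p = 0.00114), and of the macrophage markers *Cd68* (1.67-fold; edgeR, unadjusted p = 0.0401), and for each of these 5 genes no mutant overlapped a control. Markers of notochord and nucleus pulposus summed to 838.6 to 1831.1 and 961.1 to 2013.2 CPM. Macrophage markers summed to 39.7 to 55.0 CPM in controls and 44.6 to 74.9 CPM in mutants. The part of these cells in the heat shock gene differences was not tested.

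Scaling also bore on the counts of calls. With library totals in place of TMM the median of all genes shifted by -0.12 on the log2 scale, and 2 members, *Hspa1a* (log2 fold change 0.87; edgeR, unadjusted p = 0.0317) and *Hspa1b* (log2 fold change 1.22; unadjusted p = 0.0316), kept an unadjusted p under 0.05, where 1.44% of all genes were called higher. The calls over all genes went from 467 higher and 697 lower to 233 higher and 990 lower. *Hspa8* and *Hspb1* were then at log2 fold changes of 0.31 and 0.56 (edgeR, unadjusted p = 0.123 and 0.096). The signs of all 10 members were as with TMM.

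Elsewhere in the chaperone network few genes passed. None of 4 tested genes for heat shock factors and their inhibitor was called, and *Hsbp1*, which encodes that inhibitor, was at 86.7 ± 16.7 CPM in controls and 87.9 ± 15.8 CPM in mutants. *Hsf1* itself was at 50.8 ± 7.51 and 52.8 ± 17.9 CPM (log2 fold change 0.06; edgeR, unadjusted p = 0.828). Of 9 other HSP70 and HSP110 genes, 10 other J-domain genes and 11 genes of HSP90 beta, TRAP1 and HSP90 co-chaperones, 0 passed at an unadjusted p under 0.05 in edgeR, with median log2 fold changes of 0.02, 0.16 and 0.15. The most abundant of these lists were *Hspa9*, the mitochondrial HSP70 (73.1 ± 5.97 and 71.4 ± 4.49 CPM), *Dnajc7* (89.5 ± 3.08 and 92.5 ± 19.3 CPM) and *Hsp90ab1*, the constitutive HSP90 (646.6 ± 58.1 and 785.1 ± 62.1 CPM; log2 fold change 0.28; edgeR, unadjusted p = 0.186). Mutant libraries were all above controls for 4 of the 11 HSP90 genes, *Hsp90ab1*, *Ahsa1*, *Stip1* and *Chordc1*, and for 2 of the 10 J-domain genes, *Dnaja1* and *Dnajc8*, beside the 5.45% of all genes. In the lists of heat shock factors and of other HSP70, BAG and chaperonin genes this held for 0 genes. All mutants lay below all controls, as for 5.96% of all genes tested, for *Hspa4l* among the other HSP70 genes, for *Hspe1* among the chaperonin genes and for *Sdf2l1* among the endoplasmic reticulum chaperones, a list in which *Dnajb11* had every mutant above every control.

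Of the other small heat shock proteins, 4 of 7 genes were tested and 1 passed. *Hspb8*, the partner of BAG3 in chaperone-assisted autophagy, had 30.3, 28.3 and 31.3 CPM in controls and 45.3, 32.7 and 46.9 CPM in mutants, so that every mutant lay above every control (log2 fold change 0.47, SE 0.181; edgeR, unadjusted p = 0.0259, adjusted p = 0.676). With control replicate 2, mutant replicate 1 or mutant replicate 3 left out it missed the threshold in edgeR (unadjusted p = 0.0786, unadjusted p = 0.0597 and unadjusted p = 0.0954). The log2 fold changes of *Hspb8* in these 3 fits were 0.43, 0.44 and 0.38. With library totals it also missed the threshold (log2 fold change 0.34; edgeR, unadjusted p = 0.0915). *Hspb6* and *Hspb7*, small heat shock proteins of muscle, were at 48.5 and 50.3 CPM in control replicate 1, the library with the muscle markers, and at 10.3 to 23.3 and 4.53 to 13.5 CPM in the others.

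No gene passed among 7 other BAG, exchange factor and ubiquitin ligase genes (median log2 fold change -0.06), 9 genes of HSP10 and the cytosolic chaperonin (-0.01) and 12 chaperones of the endoplasmic reticulum (-0.04), whose most abundant genes were *Bag6* (log2 fold change 0.16), *Tcp1* (0.07) and *Calr* (0.06), with edgeR's unadjusted p of 0.476, 0.699 and 0.773. *Hspe1*, which encodes the HSP10 partner of HSP60 and shares 112 exonic bases with *Hspd1* on the other strand, was at 56.2 to 67.2 CPM in controls and 53.5 to 55.2 CPM in mutants (log2 fold change -0.15; edgeR, unadjusted p = 0.356).

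Immediate early genes, transcription factors and regulators that cells switch on within minutes of many stimuli, handling of tissue included, had larger fitted changes. Of 13 tested genes 12 passed at an unadjusted p under 0.05 in edgeR, all higher in mutants, with a median log2 fold change of 0.87. Of all genes tested 2.89% were called higher, and 0 of the 13 passed after adjustment. The 12 were *Fosb* (2.45), *Fos* (1.95), *Egr1* (1.94), *Zfp36* (1.69), *Junb* (1.27), *Jun* (1.19), *Btg2* (0.87), *Ier2* (0.86), *Atf3* (0.76), *Ier3* (0.70), *Dusp1* (0.54) and *Nr4a1* (0.36). All mutants lay above all controls for 5 of the 13, *Jun*, *Btg2*, *Atf3*, *Dusp1* and *Nr4a1*, beside 5.45% of all genes tested. The groups overlapped for the rest, *Fosb*, *Fos*, *Egr1*, *Zfp36* and *Junb* among them. The summed level of the 13 genes was 659.9, 475.1 and 521.0 CPM in controls and 1739.2, 758.7 and 919.6 CPM in mutants. Control replicate 1 was the highest control here too, but mutant replicate 1 was the highest mutant, where the heat shock genes peaked in mutant replicate 3 with a summed 1308.9 CPM. Without mutant replicate 1 the log2 fold change of *Fos* was 0.97, of *Fosb* 1.14, of *Egr1* 0.92 and of *Junb* 0.21. In that fit 6 of the 12 calls were lost, those of *Egr1*, *Junb*, *Ier2*, *Ier3*, *Dusp1* and *Nr4a1*. The last 4 were then at log2 fold changes of 0.27, 0.56, 0.49 and 0.37. Without control replicate 1 the log2 fold changes of *Egr1*, *Fos* and *Zfp36* were larger, at 2.64, 2.46 and 2.46. The number called was 6 without mutant replicate 1, 7 without control replicate 2 and 8 to 12 with any other 1 library left out. With library totals it was 8, without *Ier2*, *Ier3*, *Dusp1* and *Nr4a1*, which were at log2 fold changes of 0.70, 0.59, 0.42 and 0.25. The part of these genes' stimuli in the heat shock gene differences was not tested.

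**Figure D5:**
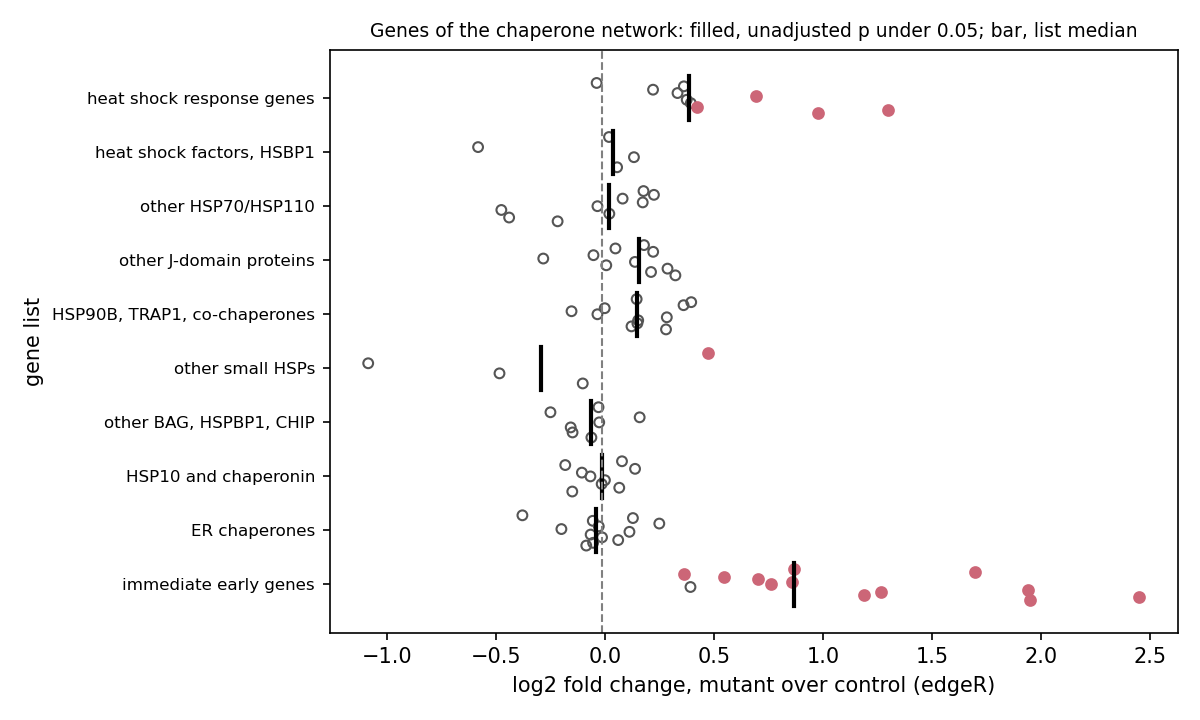
Log2 fold change of mutant over control (horizontal axis, edgeR) of every tested gene in each list (vertical axis); filled points have an unadjusted p under 0.05, bars are list medians, and the dashed line is the median of all genes tested. The heat shock response genes have a median of 0.38 and the immediate early genes of 0.87, while the endoplasmic reticulum chaperones and the chaperonin genes have medians of -0.04 and -0.01.

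The genes whose profile over the 6 libraries was most like the mean centred log2 CPM of the members were *Mapkbp1* (Pearson's r = 0.994), *Inf2* (0.990), *Plekha1* (0.983), *Pdha1* (0.982) and *Cyr61* (0.982), out of 9955 genes with a mean of at least 10 CPM. With 6 libraries and that many genes, such values are a description of these libraries. *Cyr61*, which encodes a matrix protein induced early by stretch and growth factors, had 303.9, 143.7 and 153.5 CPM in controls and 314.7, 246.5 and 393.8 CPM in mutants, which is the same order of controls as for the inducible HSP70 pair.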

How the data were processed

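Each library was made from poly(A) RNA of IVDs pooled from 2 to 3 mice at P20 and read from both ends. The authors trimmed the reads with Cutadapt and mapped them to GRCm38.88 with HISAT2 per the methods, while the submitters' processing notes name STAR 2.5.3a and HTSeq; the strand setting is not given in the sources used here. The authors deposited raw counts per gene symbol for each library; 40.4% to 44.2% of the reads or pairs listed fell on genes, and the lines for no feature, ambiguous and not aligned were left out. A deposited table of the authors' own comparison, with fold changes and p-values, was not used.

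Counts were compared with edgeR 4.0.16 (R 4.3.3; TMM, filterByExpr with a count minimum of 10, quasi-likelihood test, Benjamini-Hochberg adjustment over 16152 genes, no covariates), since the test of transcript FPKM in the methods could not be run on counts. CPM are counts divided by the TMM-scaled library size, times 1000000. A gene is called at an unadjusted p under 0.05. SE is the log2 fold change divided by the square root of F. Replicates are pools, the p-values measure the spread between pools, and counting precision at these depths covers counting error only. Gene positions come from GENCODE M21 (GRCm38); 100-base windows of each gene's longest coding transcript were searched in all annotated transcripts, and coding sequences were aligned with Biopython 1.88 as longest open reading frames.

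Every member is named. Of each other list the genes with an unadjusted p under 0.05 are named, or else the one with the highest mean CPM, and the 5 genes with the highest Pearson r with the members over the 6 libraries. Others (*Hsf1*, *Hspe1*, *Hspb2*, *Hspb6*, *Hspb7*, *Ahsa1*, *Stip1*, *Chordc1*, *Dnaja1*, *Dnajc8*, *Hspa4l*, *Sdf2l1*, *Dnajb11*, single marker genes and the genes that share sequence) were chosen after their values were seen. The members and lists were chosen with earlier results of these data known. Alternatives were other scalings (RLE, library totals), no filter, DESeq2 1.42.0, limma-voom (limma 3.58.1), a replicate block, leaving out each library, summing *Hspa1a* with *Hspa1b* and, added after seeing the data, summing members with genes that share sequence. A further list of stress genes is not reported here.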

Additional observations from a re-analysis of the deposited data

How the results depend on the processing

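Without a filter on low counts 2276 genes had an unadjusted p under 0.05 in edgeR, against 1164, and 245 an adjusted p under 0.05, against 1; *Hspa1b* was then the 1 member called after adjustment. DESeq2 called 58 genes after adjustment, and limma-voom and the replicate block 0 each. With library totals 2 members had an unadjusted p under 0.05. Leaving out 1 library gave 618 (without control replicate 3) to 2427 genes (without control replicate 1) and 0 to 7 members at an unadjusted p under 0.05, and 0 to 31 genes and 0 to 1 members after adjustment. Whether replicate numbers pair the samples is not stated. Deviations from the group means correlated at 0.159, -0.132 and 0.101 between same-numbered libraries. Mutant replicates 1 and 3 correlated best with the control of their own number. Control replicate 3 correlated best with mutant replicate 2 (0.179). With 3 pools in a group, such low values cannot exclude a shared litter or batch. With the number as a replicate block 1002 genes and 3 members had an unadjusted p under 0.05 in edgeR, and 0 genes passed after adjustment. The log2 fold changes of these members were 1.64 for *Hspa1b* (edgeR, unadjusted p = 0.00615), 1.11 for *Hspa1a* (unadjusted p = 0.00701) and 0.67 for *Hspb1* (unadjusted p = 0.0126). The member lost was *Hspa8* (log2 fold change 0.42, edgeR, unadjusted p = 0.0672), which was also lost without a filter (0.44, unadjusted p = 0.0664). Signs turned for genes with log2 fold changes near 0. With libraries left out *Hspd1* ranged from -0.12 to 0.11, *Hsbp1* from -0.10 to 0.17, *Hspa9* from -0.0715 to 0.0539, *Dnajc7* from -0.12 to 0.16 and *Calr* from -0.0752 to 0.1904. With library totals *Hsbp1* was at -0.11, *Dnajc7* at -0.0592, *Tcp1* at -0.061 and *Calr* at -0.0385, and with limma-voom *Hsbp1* was at -0.0338 and *Dnajc7* at -0.0214. The cause of these shifts was not tested. The log2 ratio of the inducible pair to *Hspa8* differed by 0.69 for *Hspa1a* alone and 1.25 for *Hspa1b* alone.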
